A study of Mus musculus with 17 samples.

Results

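The genes described here are those named Gpr and a number, the symbols given to G protein-coupled receptors that had no known ligand when they were cloned. The rule uses the symbol alone, leaves out Gpr50, and gave 59 of the 22180 genes measured. Gpr3, Gpr21, Gpr39, Gpr89 and Gpr137, found only on probe sets shared with other genes, were not taken. The rule was set with earlier results of these data known. The tissue was periprostatic fat, the depot that surrounds the prostate, from 17 male C57BL/6J mice. RNA of every mouse was hybridised to a separate Affymetrix Mouse Gene 2.0 ST array. In the HFD+CR group, 5 mice ate a diet with 60% of its energy as fat for 12 weeks, then for 7 weeks received 70% of what HFD mice ate each day. In the HFD group, 6 mice ate that diet freely throughout. In the LFD group, 6 mice ate a diet with 10% of its energy as fat throughout. Feeding began at 6 weeks of age and all mice were killed at 25 weeks. The labels name no transgene or gene deletion. Restriction was applied on the high-fat diet alone. Restricted mice were fed a set amount per day, and their time without food before tissue collection is not known here.

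G protein-coupled receptors cross the cell membrane and, when a ligand binds outside, switch on a G protein inside that raises or lowers cyclic AMP or calcium. Many Gpr genes have since been paired with a ligand: protons, oxysterols, lysophospholipids, fatty acids, kynurenine metabolites or peptides. Several act in immune cells, which surround and clear adipocytes in the fat of obese mice, and a few proteins with a Gpr symbol, such as Gpr107 and Gpr108, sit in the Golgi and are not classical receptors. The question of the design was which of these genes differ with fat feeding, and which differ when intake is restricted on that diet.

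The 300 bases around the annotated start of 5 of these genes are shown because the genes cover the patterns reported here: Gpr65, Gpr183 and Gpr176 were higher on the high-fat diet and lower with restriction, Gpr160 was highest with restriction, and Gpr165 was lowest on the high-fat diet. The sequences are from RefSeq on GRCm38.p6, run 5′ to 3′ in the direction of the gene, and hold 250 bases before the start and 50 after it. Gpr65 lies at chr12:98268385-98268684 on the plus strand and Gpr183 at chr14:121965144-121965443 on the minus strand. Gpr176 lies at chr2:118373370-118373669 on the minus strand, Gpr160 at chr3:30855700-30855999 on the plus strand and Gpr165 at chrX:96713218-96713517 on the plus strand. Capitals mark every match, on either strand, to GAGGAA (the core bound by PU.1, a factor of myeloid and B cells), GGGCGG (the GC box) or TATAAA (the TATA box).
Gpr65: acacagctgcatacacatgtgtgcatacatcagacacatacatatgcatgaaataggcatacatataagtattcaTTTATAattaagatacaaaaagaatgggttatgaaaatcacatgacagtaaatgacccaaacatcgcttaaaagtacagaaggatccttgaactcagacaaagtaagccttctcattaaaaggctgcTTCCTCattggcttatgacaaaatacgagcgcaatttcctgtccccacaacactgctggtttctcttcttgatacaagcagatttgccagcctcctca
Gpr183: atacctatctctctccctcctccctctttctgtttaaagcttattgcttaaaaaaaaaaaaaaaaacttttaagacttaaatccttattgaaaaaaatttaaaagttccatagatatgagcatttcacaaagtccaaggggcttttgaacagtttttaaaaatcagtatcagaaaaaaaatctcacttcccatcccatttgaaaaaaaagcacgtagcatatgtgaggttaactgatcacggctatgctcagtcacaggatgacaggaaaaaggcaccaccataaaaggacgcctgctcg
Gpr176: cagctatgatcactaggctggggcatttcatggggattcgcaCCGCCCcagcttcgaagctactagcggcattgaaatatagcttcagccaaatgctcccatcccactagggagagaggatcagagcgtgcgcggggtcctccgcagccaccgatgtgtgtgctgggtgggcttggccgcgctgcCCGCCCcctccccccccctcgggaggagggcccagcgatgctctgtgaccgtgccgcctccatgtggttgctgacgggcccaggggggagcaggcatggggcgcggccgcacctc
Gpr160: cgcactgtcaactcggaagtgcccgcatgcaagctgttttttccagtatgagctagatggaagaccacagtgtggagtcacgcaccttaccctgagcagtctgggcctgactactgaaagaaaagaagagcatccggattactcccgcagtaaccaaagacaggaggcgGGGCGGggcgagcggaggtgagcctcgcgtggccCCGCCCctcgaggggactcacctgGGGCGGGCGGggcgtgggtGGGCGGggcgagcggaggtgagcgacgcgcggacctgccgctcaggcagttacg
Gpr165: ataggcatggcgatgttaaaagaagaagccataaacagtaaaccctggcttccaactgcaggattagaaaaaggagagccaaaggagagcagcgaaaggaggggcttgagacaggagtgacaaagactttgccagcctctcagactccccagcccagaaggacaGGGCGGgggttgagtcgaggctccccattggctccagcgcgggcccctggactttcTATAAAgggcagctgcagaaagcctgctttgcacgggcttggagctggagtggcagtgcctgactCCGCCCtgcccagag
In these 5 windows Gpr65 held 1 GAGGAA and 1 TATAAA, both on the minus strand of the window, Gpr176 held 2 GGGCGG, Gpr160 held 5 GGGCGG, Gpr165 held 2 GGGCGG and 1 TATAAA, and Gpr183 held no match; matches to different motifs did not overlap. RefSeq windows were found for 44 of the 59 genes, with 58 windows in all since some genes have several starts. GAGGAA was in 13 of these 58 windows (22.41%), against 28.28% of all 32851 windows. GGGCGG was in 22 of 58 (37.93%), against 35.66% of all, and TATAAA in 6 of 58 (10.34%), against 13.62% of all.

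Most of the 59 genes gave dim signals. Mean log2 array signals over the 17 mice ran between 5.24 for Gpr82 and 10.38 for Gpr108, with a median of 7.04. The means of 29 genes (49.2%) lay below 7.03, the lowest median over all probe sets of any array, against 41.0% of all 22180 genes. Only 17 genes (28.8%) exceeded the median of all gene means, which was 7.53. The 5 above 9 were Gpr108 at 10.38, Gpr155 at 9.36, Gpr180 at 9.32, Gpr107 at 9.22 and Gpr146 at 9.16. Signals are given within a gene across mice, because probes of different genes bind with different strength and their signals do not rank the genes by RNA amount. At dim signals a difference can understate the change in RNA.

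The label of the tissue was checked with marker lists. The 8 adipocyte markers averaged 12.87 to 13.01 log2 units in HFD+CR mice, 12.68 to 12.81 in HFD mice and 12.80 to 12.95 in LFD mice, so they were bright in all 17. Skeletal muscle markers averaged 9.19 in HFD+CR mouse 2, 10.33 in LFD mouse 2 and 9.23 in LFD mouse 3, and 7.09 to 8.17 in the other 14 mice. Gland epithelium markers averaged 7.42 in LFD mouse 3 and 6.00 to 6.39 in the other mice. Thermogenic adipocyte markers averaged 11.01 and 10.34 in LFD mice 3 and 6, against 7.24 to 8.97 in the others. Male germ cell markers averaged 9.98 in HFD+CR mouse 1 and 7.23 to 8.41 in the other 16 mice. Without HFD+CR mouse 1, 5 of the 59 genes rose in HFD+CR against HFD and 1 fell in HFD+CR against LFD, where 3 and 2 did so with it. Over all 22180 genes these counts were 1706 and 521 without that mouse, and 1705 and 728 with it.

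**Figure D1:**
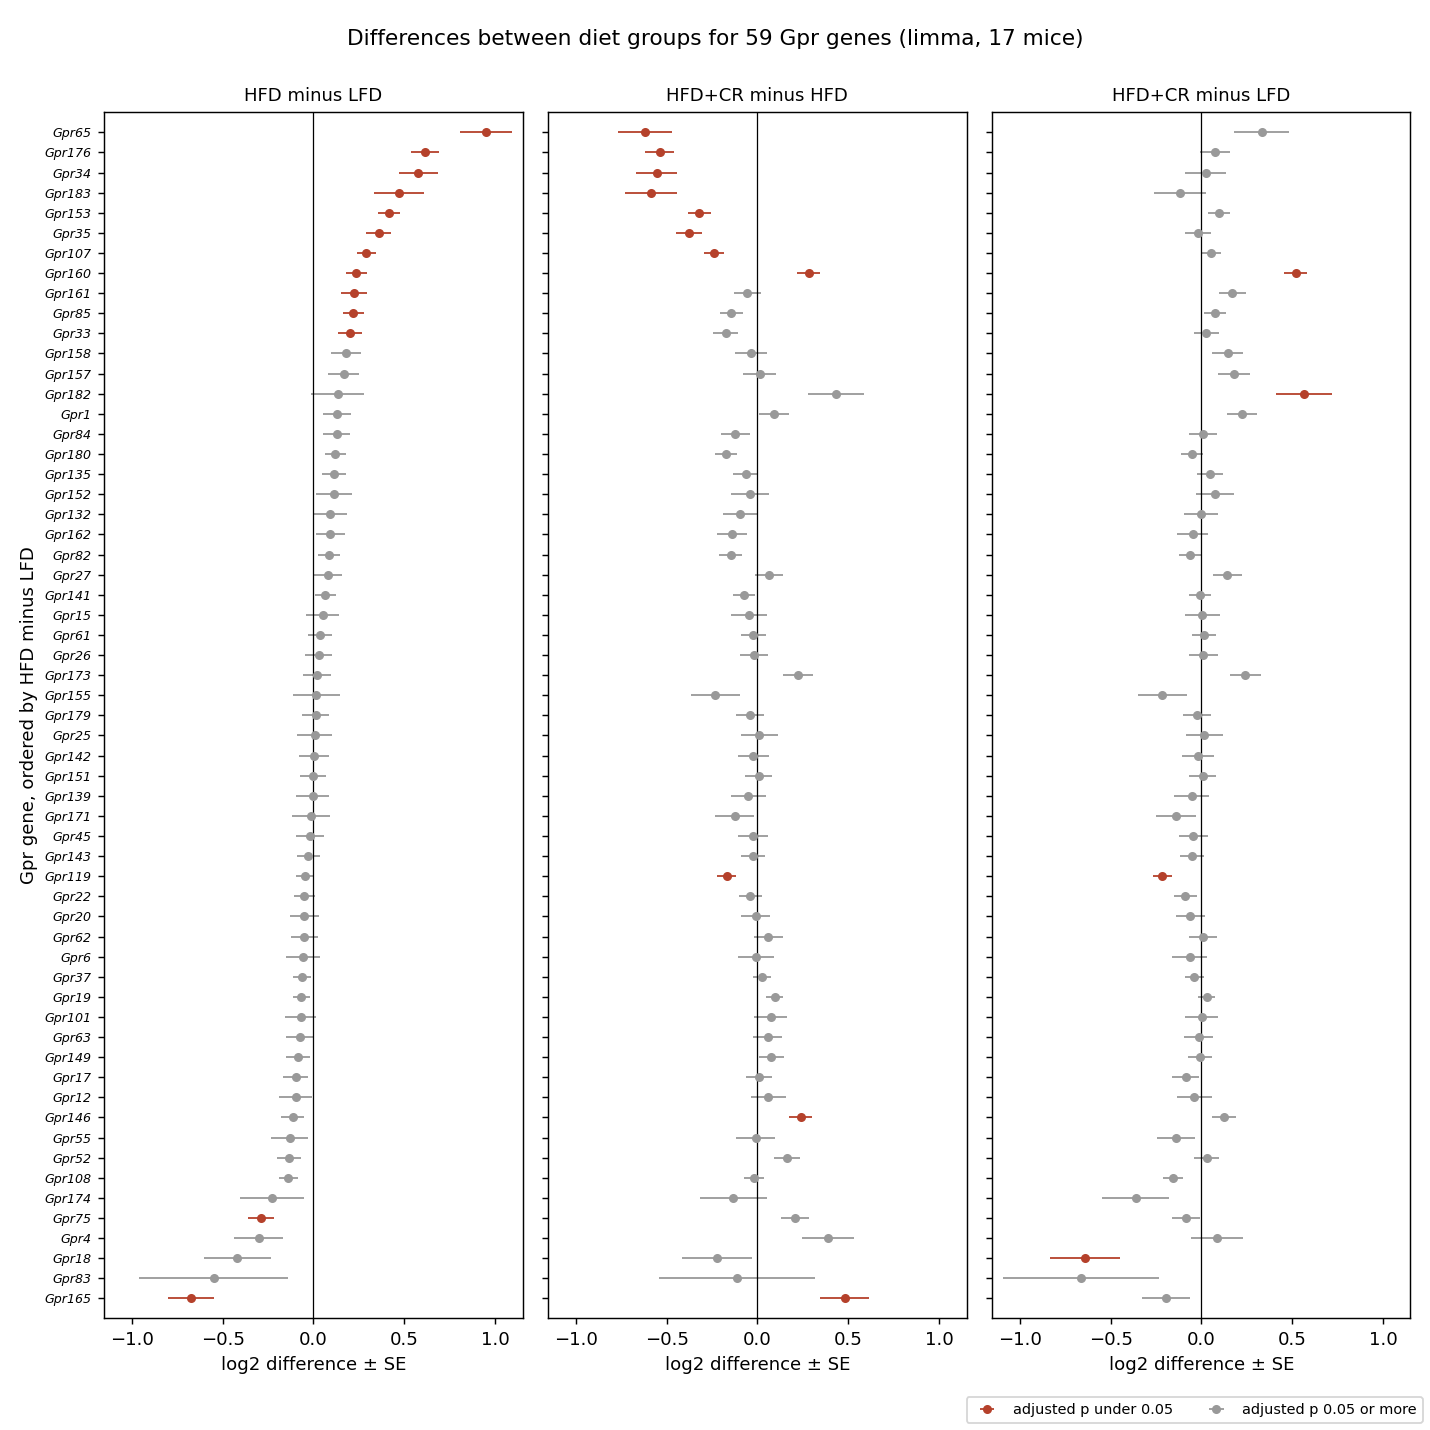
Log2 difference ± SE (limma) of each of the 59 Gpr genes for HFD minus LFD, HFD+CR minus HFD and HFD+CR minus LFD, 1 row per gene in all 3 panels, with adjusted p under 0.05 in red. Red points lie mostly right of 0 in the first panel (11 against 2) and left of 0 in the second (8 against 3), and only 4 are red in the third.

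On the high-fat diet 11 of the 59 genes rose and 2 fell against the low-fat diet. The words rose and fell are used where limma's p, adjusted by Benjamini-Hochberg over all 22180 genes, was under 0.05. Over all genes 16.5% rose and 11.3% fell, so the share that rose (18.6%) was near the background and the share that fell (3.39%) was below it. The genes that rose were Gpr33, Gpr34, Gpr35, Gpr65, Gpr85, Gpr107, Gpr153, Gpr160, Gpr161, Gpr176 and Gpr183, and those that fell were Gpr75 and Gpr165. All of these were differences of less than a doubling, and the median absolute difference was 0.10 both over the 59 genes and over all genes. HFD and LFD values did not overlap for 8 of the genes (13.6%), against 14.3% of all genes: 7 were higher in HFD (background 9.05%) and 1 was lower (background 5.21%). Counted in either direction, 22.0% of the 59 genes passed, against 27.8% of all genes. The balance over all genes depended on scaling: 59.4% of the calls were higher in HFD, against 47.9% with each array centred and 47.9% with quantile normalization again, where 9 and 10 of the 59 genes rose and 3 and 4 fell.

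With restriction on the high-fat diet, 8 of the 59 genes fell and 3 rose against HFD. Over all genes 11.3% fell and 7.69% rose, against 13.6% and 5.08% of these genes. Gpr34, Gpr35, Gpr65, Gpr107, Gpr119, Gpr153, Gpr176 and Gpr183 fell, and Gpr146, Gpr160 and Gpr165 rose. In either direction 18.6% of the 59 genes passed, against 19.0% of all genes. HFD+CR and HFD values did not overlap for 11 of the genes (18.6%), against 13.7% of all genes: 8 were lower in HFD+CR (background 8.26%) and 3 were higher (background 5.42%). These are not the same genes as those called. Gpr34 and Gpr146 passed with overlapping values. Gpr155 (lower in HFD+CR) and Gpr173 (higher) did not overlap and did not pass in limma (adjusted p = 0.281 and 0.0713). Both comparisons use the same HFD mice, so their calls are not independent of each other.

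Against LFD, HFD+CR mice had 2 higher genes (3.39%, background 5.8), Gpr160 and Gpr182, and 2 lower genes (3.39%, background 3.28), Gpr18 and Gpr119. In either direction that is 6.78% of the 59 genes, against 9.08% of all. HFD+CR and LFD values did not overlap for 2 genes (3.39%, background 6.67): Gpr160 was higher in HFD+CR (background 4.24) and Gpr119 was lower (background 2.43). This comparison shares its HFD+CR mice with the second comparison and its LFD mice with the first. Across the 3 comparisons 17 of the 59 genes passed at least once and 42 in none. Of these 17, 4 have means below 7.03: Gpr33, Gpr85, Gpr119 and Gpr165.

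**Figure D2:**
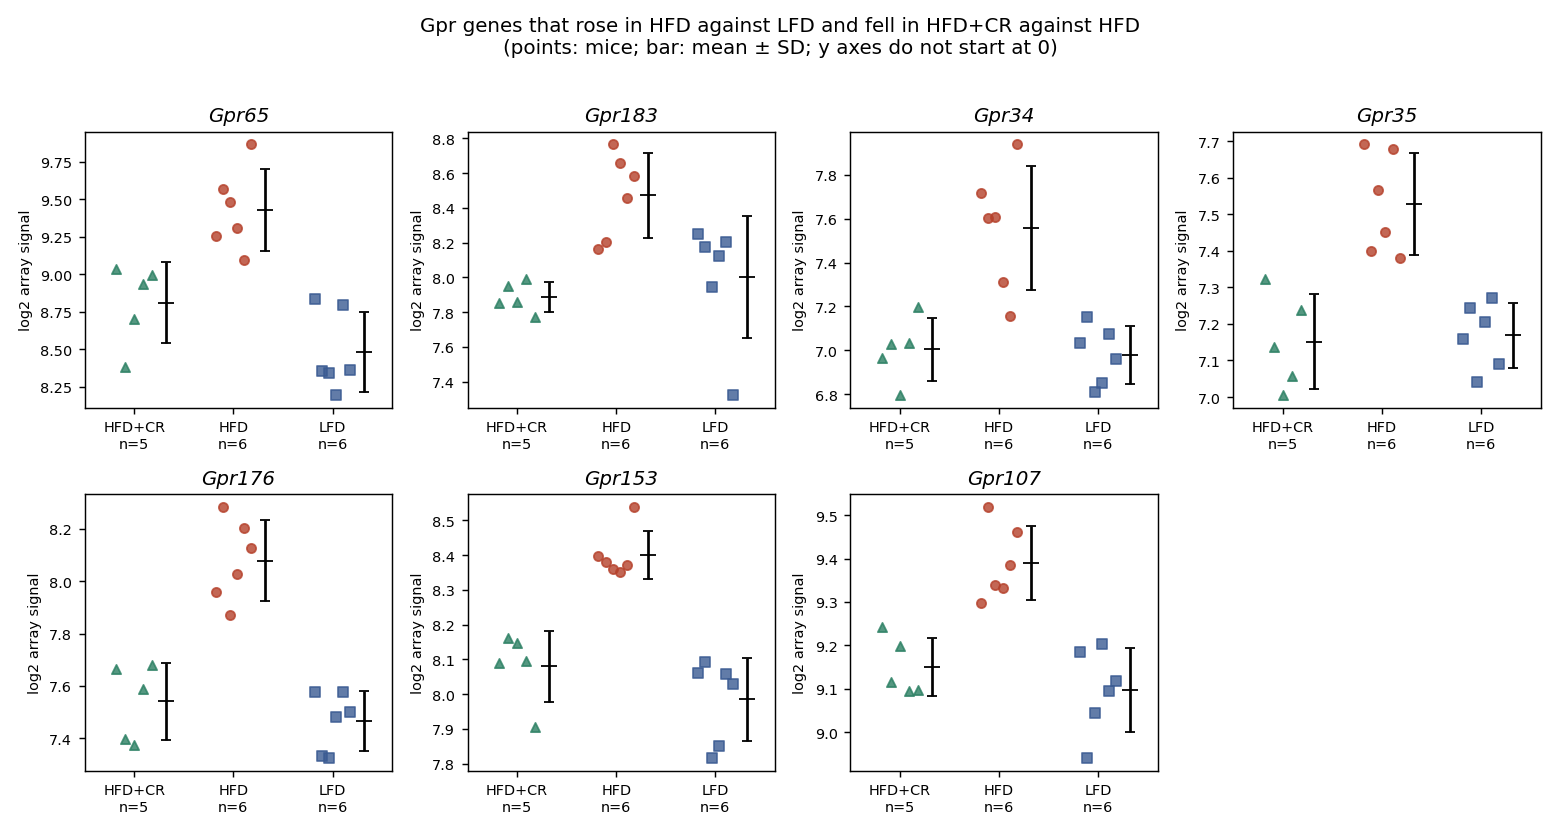
Log2 array signal of the 7 Gpr genes that rose in HFD against LFD and fell in HFD+CR against HFD, with 1 point per mouse, the mean ± SD beside it, and y axes that do not start at 0. For Gpr65, Gpr35, Gpr176, Gpr153 and Gpr107 every HFD mouse lies above every mouse of both other groups, and Gpr183 overlaps in HFD and LFD.

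The largest difference between HFD and LFD, that of Gpr65, was on the list of leukocyte receptors. Of its 16 measured genes, 6 rose in HFD mice and none fell in the comparison with LFD. These 6 were Gpr33, Gpr34, Gpr35, Gpr65, Gpr183 and Gpr160, an orphan receptor that was placed on this list. In HFD+CR against HFD 4 fell and 1 rose (Gpr160), and in HFD+CR against LFD 1 rose (Gpr160) and 1 fell (Gpr18). As shares these are 37.5% that rose in HFD against LFD (background 16.5%), 25.0% that fell and 6.25% that rose in HFD+CR against HFD (background 11.3% and 7.69%), and 6.25% each way in HFD+CR against LFD (background 5.8% rose and 3.28% fell). They describe this list and were not tested against other lists. Their median difference was 0.09 for HFD minus LFD and -0.13 for HFD+CR minus HFD, where the medians over all genes were -0.00323 and -0.00238. Bulk tissue was measured, so more cells of a type and more RNA per cell cannot be told apart in any of these values.

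Gpr65 is a proton-sensing receptor of macrophages and lymphocytes that raises cyclic AMP in acid surroundings. Its signal was 9.03, 8.38, 8.71, 8.94 and 9.0 in the 5 HFD+CR mice. HFD mice ran between 9.09 and 9.87 with a median of 9.40, and LFD mice between 8.19 and 8.84 with a median of 8.36. Every HFD mouse was above every other mouse. The mean was 0.95 ± 0.14 (SE) log2 units higher in HFD than in LFD (1.93-fold, adjusted p = 5.38e-05). It was 0.62 ± 0.15 lower in HFD+CR than in HFD (log2 difference -0.62, adjusted p = 0.00634). HFD+CR minus LFD was 0.33 ± 0.15 with adjusted p = 0.200, a difference that did not pass. Of the other proton sensors, Gpr132, which is also activated by oxidised fatty acids, averaged 7.99 ± 0.10 in HFD+CR, 8.09 ± 0.10 in HFD and 7.99 ± 0.24 in LFD (SD, n = 5, 6 and 6), and did not pass in any comparison (adjusted p = 0.498, 0.576 and 0.998 for HFD minus LFD, HFD+CR minus HFD and HFD+CR minus LFD). Gpr4, the proton sensor of endothelium, averaged 9.07 ± 0.21 in HFD+CR, 8.68 ± 0.31 in HFD and 8.98 ± 0.23 in LFD, with differences of -0.30 ± 0.14 for HFD minus LFD (adjusted p = 0.113) and 0.39 ± 0.14 for HFD+CR minus HFD (adjusted p = 0.0672). For Gpr4 the HFD+CR minus HFD difference passed on leaving out HFD mouse 4, HFD mouse 5 or LFD mouse 3, with adjusted p of 0.0372, 0.040 and 0.0457, and HFD minus LFD passed on leaving out LFD mouse 3, with 0.0411. With all 17 mice it passed for HFD+CR minus HFD when only genes above the median level were tested (adjusted p = 0.0394). Of 26 alternative analyses, 2 gave a call for HFD minus LFD and 6 for HFD+CR minus HFD. HFD mouse 1 had the lowest Gpr4 signal (8.18) and the lowest endothelial marker mean (10.20). Without that mouse the differences shrank to -0.20 (adjusted p = 0.264) and 0.29 (adjusted p = 0.146). The part of endothelial markers in Gpr4 was not tested.

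Gpr34 is the lysophosphatidylserine receptor of microglia and other myeloid cells. Its signal was 6.97, 7.03, 6.80, 7.03 and 7.20 in HFD+CR mice, 7.16 to 7.94 with a median of 7.61 in HFD mice and 6.81 to 7.15 with a median of 7.00 in LFD mice. HFD mice lay above all LFD mice, and 1 HFD+CR mouse reached the HFD range. HFD exceeded LFD by 0.58 ± 0.11 (adjusted p = 0.000475), and HFD+CR minus HFD was -0.55 ± 0.11 (adjusted p = 0.00184). HFD+CR minus LFD was 0.02 ± 0.11 (adjusted p = 0.936). Gpr34 and its neighbour Gpr82 both overlap Cask on the X chromosome; Gpr82 is the dimmest of the 59 genes at 5.24 and did not pass in any comparison.

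Gpr35 responds to kynurenic acid and lysophosphatidic acid and is found in gut and immune cells. HFD+CR mice had 7.32, 7.14, 7.00, 7.06 and 7.24, HFD mice had 7.38 to 7.69 (median 7.51) and LFD mice had 7.04 to 7.27 (median 7.18). The lowest HFD mouse was above the highest mouse of either other group. HFD minus LFD was 0.36 ± 0.07 (adjusted p = 0.000559), HFD+CR minus HFD was -0.38 ± 0.07 (adjusted p = 0.00104) and HFD+CR minus LFD was -0.02 ± 0.07 (adjusted p = 0.929).

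Gpr183 (EBI2) binds dihydroxycholesterols and guides B cells, T cells and dendritic cells within lymphoid tissue. The 5 HFD+CR mice had 7.85, 7.95, 7.86, 7.99 and 7.77. HFD mice had 8.17 to 8.77 with a median of 8.52, and LFD mice had 7.32 to 8.25 with a median of 8.15, the 7.32 being LFD mouse 6. All HFD+CR mice were below all HFD mice, and HFD and LFD overlapped. The difference of HFD minus LFD was 0.47 ± 0.14 (adjusted p = 0.0145), and it was 0.33 with adjusted p = 0.0175 without LFD mouse 6. HFD+CR minus HFD was -0.59 ± 0.14 (adjusted p = 0.00674), and HFD+CR minus LFD was -0.12 ± 0.14 (adjusted p = 0.697). When HFD+CR mouse 2, HFD mouse 3 and LFD mice 2 and 3, which an earlier look at these arrays had listed for other tissue, were left out, Gpr183 lost its HFD minus LFD call, at 0.44 with adjusted p = 0.0670. Among them HFD mouse 3 did not stand apart in the muscle (7.09) or gland epithelium (6.39) lists.

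Macrophage markers differed in the same mice. Of 11 measured markers 10 rose in HFD against LFD (90.9%, background 16.5%) and none fell. In HFD+CR against HFD 10 fell (90.9%, background 11.3%) and 1 rose (9.09%, background 7.69%). In HFD+CR against LFD 4 rose (36.4%, background 5.8%) and none fell. Their mean signal was 10.20 to 10.67 in HFD+CR mice, 10.93 to 11.42 in HFD mice and 9.71 to 10.19 in LFD mice, groups that did not overlap. HFD mouse 6 had the highest list mean and the highest signal for Gpr34, Gpr65 and Gpr153. The highest mouse was HFD mouse 1 for Gpr35, HFD mouse 2 for Gpr107 and Gpr176, and HFD mouse 3 for Gpr183. None of these Gpr genes passed in HFD+CR against LFD. The part of macrophage markers in the differences of Gpr34, Gpr35, Gpr65, Gpr107, Gpr153, Gpr176 and Gpr183 was not tested. The dendritic cell list averaged 7.43 to 7.66 in HFD+CR, 7.60 to 7.80 in HFD and 7.52 to 7.89 in LFD.

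Gpr18, a lymphocyte receptor, lies next to Gpr183 on chromosome 14, both overlapping Ubac2, and its groups were ordered differently. HFD+CR mice had 7.57, 7.67, 7.64, 7.18 and 7.14, HFD mice had 7.35 to 8.15 with a median of 7.60, and LFD mice had 7.21 to 8.56 with a median of 8.13. HFD+CR and LFD overlapped because LFD mouse 6, at 7.21, stood below the other LFD mice. HFD overlapped both other groups with or without that mouse. HFD+CR minus LFD was -0.64 ± 0.19 (adjusted p = 0.0446), HFD minus LFD was -0.42 ± 0.18 (adjusted p = 0.104) and HFD+CR minus HFD was -0.22 ± 0.19 (adjusted p = 0.511). Without LFD mouse 6 HFD+CR minus LFD was -0.81 (adjusted p = 0.00227), and HFD minus LFD passed at -0.59 (adjusted p = 0.0041). The call for HFD+CR against LFD held in 10 of 26 alternative analyses, whose adjusted p ran from 0.00227 to 0.118. It was lost without HFD+CR mouse 1, 3, 4 or 5, without HFD mouse 1, 4, 5 or 6, and without LFD mouse 1, 2, 3, 4 or 5. HFD minus LFD also passed without HFD mouse 3, at -0.52 (adjusted p = 0.0455). Gpr174, a lysophosphatidylserine receptor of T and B cells, averaged 6.71 ± 0.20 in HFD+CR, 6.85 ± 0.40 in HFD and 7.08 ± 0.36 in LFD, and its differences of -0.23 (HFD minus LFD), -0.13 (HFD+CR minus HFD) and -0.36 (HFD+CR minus LFD) did not pass.

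In LFD mouse 6 and HFD mouse 3, B cell markers lay at the same end of their group as these lymphocyte receptors. The 7 measured markers averaged 8.04 to 8.86 in HFD+CR mice, 8.07 to 9.30 in HFD mice and 8.87 to 9.34 in 5 of the LFD mice, with LFD mouse 6 at 8.03. LFD mouse 6 was also the lowest LFD mouse for Gpr18 (7.21), Gpr174 (6.61) and Gpr183 (7.32). HFD mouse 3, with the highest HFD list mean of 9.30, was the highest HFD mouse for Gpr18 (8.15), Gpr174 (7.50) and Gpr183 (8.77). HFD+CR mice 4 and 5 had the lowest HFD+CR list means, 8.18 and 8.04, and the lowest HFD+CR values of Gpr18 and Gpr174. Gpr183 did not follow them: mouse 4, at 7.99, was its highest HFD+CR mouse. Between groups, the list averaged 0.46 lower in HFD than in LFD, whereas Gpr183 was 0.47 higher. The 8 measured T cell markers averaged 7.30 to 7.47 in HFD+CR, 7.35 to 7.59 in HFD and 7.31 to 8.30 in LFD. The part of B and T cell markers in these results was not tested.

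**Figure D3:**
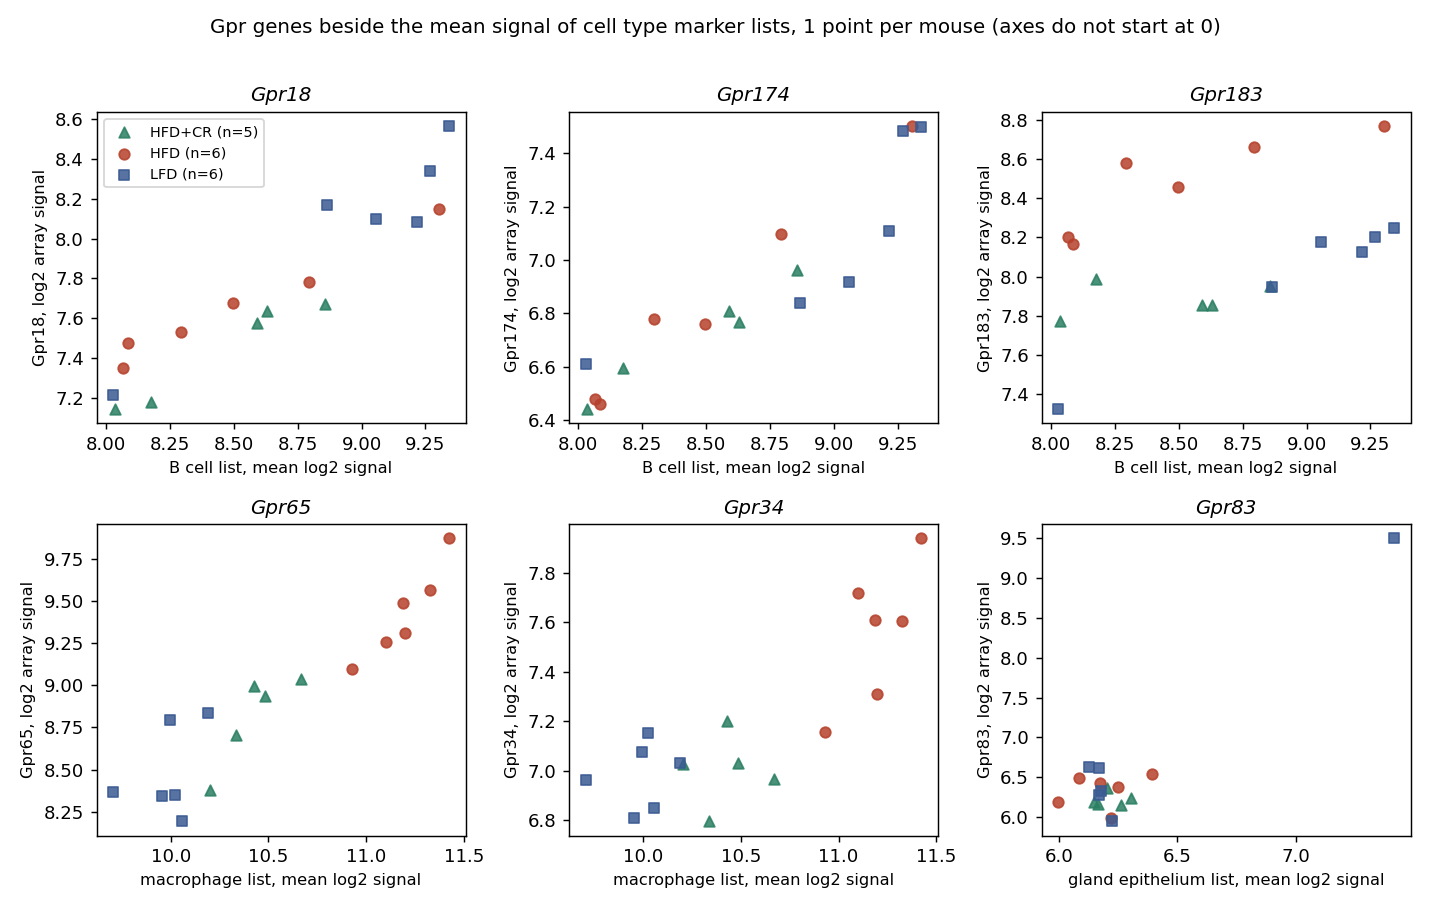
Log2 array signal of Gpr18, Gpr174, Gpr183, Gpr65, Gpr34 and Gpr83 (y) beside the mean log2 signal of a marker list (x: B cells for the first 3, macrophages for the next 2, gland epithelium for Gpr83), with 1 point per mouse and axes that do not start at 0. HFD mice (macrophage mean 10.93 to 11.42) have the highest Gpr65 values, LFD mouse 6 (B cell mean 8.03) is low for the first 3 genes, and LFD mouse 3 alone is high for Gpr83.

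Among the other leukocyte receptors Gpr33 passed. Gpr33, a chemoattractant-type receptor that is a pseudogene in most humans, averaged 6.33 ± 0.11 in HFD+CR, 6.50 ± 0.10 in HFD and 6.30 ± 0.13 in LFD, with HFD minus LFD at 0.20 ± 0.06 (adjusted p = 0.025). Leaving out HFD mouse 1, LFD mouse 2 or LFD mouse 3 ended that call, with adjusted p of 0.0645, 0.0518 and 0.0579. Gpr84, a receptor for medium-chain fatty acids on myeloid cells, averaged 6.75 ± 0.08 in HFD+CR, 6.87 ± 0.09 in HFD and 6.74 ± 0.19 in LFD, and its differences of 0.13, -0.12 and 0.01 (HFD minus LFD, HFD+CR minus HFD and HFD+CR minus LFD) did not pass, with adjusted p = 0.227, 0.337 and 0.969. Without LFD mouse 1, Gpr84 passed for HFD minus LFD at 0.19 (adjusted p = 0.0312). Gpr171, a receptor on T cells, averaged 6.99 in HFD+CR, 7.12 in HFD and 7.13 in LFD by its brighter probe set, and 6.57 in HFD+CR, 6.20 in HFD and 6.63 in LFD by its other probe set. The mean of both gave HFD minus LFD of -0.22 with adjusted p = 0.0163, a call the brighter probe set alone did not make. Gpr15, Gpr25, Gpr55, Gpr82, Gpr132, Gpr141 and Gpr174 passed in no comparison.

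Lipid and metabolite receptors were a mixed list: of 7 measured, 2 rose in HFD against LFD (Gpr35 and Gpr183), 3 fell in HFD+CR against HFD (Gpr35, Gpr119 and Gpr183) and 2 fell in HFD+CR against LFD (Gpr18 and Gpr119). As shares these are 28.6% (background 16.5%), 42.9% (background 11.3%) and 28.6% (background 3.28%). They describe this short list and were not tested against other lists. Gpr119, which senses oleoylethanolamide and lysophospholipids in islet and enteroendocrine cells, was dim here: 6.11, 6.03, 6.02, 6.04 and 6.10 in HFD+CR mice, 6.16 to 6.35 (median 6.19) in HFD mice and 6.16 to 6.44 (median 6.27) in LFD mice. All HFD+CR mice were below all other mice. HFD+CR minus LFD was -0.21 ± 0.05 (adjusted p = 0.014), HFD+CR minus HFD was -0.17 ± 0.05 (adjusted p = 0.0305), and HFD minus LFD was -0.05 ± 0.05 (adjusted p = 0.562). The HFD+CR minus HFD call was lost without HFD+CR mouse 2, 3 or 4 or HFD mouse 3 or 5, with adjusted p of 0.059 to 0.0752, and at -0.15 (adjusted p = 0.106) without the 4 arrays named for Gpr183. Its mean lay below the median of every array, so the size of this change is uncertain. Gpr55, a lysophosphatidylinositol receptor, averaged 6.82 ± 0.19 in HFD+CR, 6.83 ± 0.21 in HFD and 6.96 ± 0.16 in LFD, with differences of -0.13 (HFD minus LFD), -0.01 (HFD+CR minus HFD) and -0.14 (HFD+CR minus LFD), none of which passed. Gpr17, which is known for its role in oligodendrocyte precursors, averaged 7.38 in HFD+CR, 7.37 in HFD and 7.47 in LFD by its own probe set and did not pass.

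Of 7 peptide and protein receptors, 1 passed in any comparison (14.3%, higher in HFD+CR against LFD, background 5.8%), Gpr182. It binds chemokines without signalling and is found on lymphatic and blood endothelium. HFD+CR mice had 8.46, 8.66, 8.87, 9.14 and 9.18, HFD mice had 8.05 to 8.58 with a median of 8.50, and LFD mice had 7.70 to 8.59 with a median of 8.37. Of the 5 HFD+CR mice, 4 were above every other mouse. HFD+CR minus LFD was 0.56 ± 0.15 (adjusted p = 0.0255) and passed in 21 of 26 alternative analyses, but not without HFD+CR mouse 3, 4 or 5 (adjusted p = 0.0540, 0.0790 and 0.0760). HFD+CR minus HFD was 0.43 ± 0.15 (adjusted p = 0.0584), which passed in 7 of 26, among them without HFD+CR mouse 1 (adjusted p = 0.020) and without LFD mouse 3 (adjusted p = 0.0176), and HFD minus LFD was 0.13 ± 0.15 (adjusted p = 0.561). The lowest HFD and LFD values were from HFD mouse 1 and LFD mouse 3, which also had the lowest endothelial marker means of their groups, 10.20 and 10.49. Those 6 markers averaged 10.62 to 10.76 in HFD+CR, 10.20 to 10.73 in HFD and 10.49 to 10.83 in LFD, and 0 passed in HFD+CR against LFD. Gpr1, a chemerin receptor, averaged 7.45 ± 0.11 in HFD+CR, 7.36 ± 0.18 in HFD and 7.23 ± 0.13 in LFD. Its differences were 0.22 ± 0.08 for HFD+CR minus LFD (adjusted p = 0.114), 0.13 for HFD minus LFD (adjusted p = 0.255) and 0.09 for HFD+CR minus HFD (adjusted p = 0.533).

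Gpr83, found in brain and regulatory T cells, was high in 1 mouse. It was 9.50 in LFD mouse 3 and 5.94 to 6.63 in the other LFD mice, with 6.22 ± 0.08 in HFD+CR and 6.33 ± 0.21 in HFD mice. In limma, HFD minus LFD was -0.55 ± 0.41 (adjusted p = 0.368) and -0.03 (adjusted p = 0.909) without that mouse. Gland epithelium markers averaged 7.42 in that mouse and urothelium markers 8.96, both the highest of all mice. Thermogenic adipocyte (11.01), smooth muscle (9.61) and mesothelium (9.68) markers were also highest in that mouse. The part of these lists in Gpr83 was not tested. Gpr15, Gpr37, Gpr139 and Gpr171 passed in no comparison, with differences between -0.14 and 0.05.

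Of the 28 constitutively active or brain class A receptors, 4 rose and 2 fell in HFD against LFD, 2 rose and 2 fell in HFD+CR against HFD, and none passed in HFD+CR against LFD. These shares were near or below those of all genes: 14.3% rose and 7.14% fell in HFD against LFD (background 16.5% and 11.3%), and 7.14% each way in HFD+CR against HFD (background 7.69% rose and 11.3% fell). Gpr176 is an orphan receptor of the brain's circadian clock that lowers cyclic AMP. HFD+CR mice had 7.67, 7.40, 7.37, 7.59 and 7.68, HFD mice had 7.87 to 8.28 (median 8.08) and LFD mice had 7.32 to 7.58 (median 7.49). All HFD mice were above all others. Its HFD minus LFD difference was 0.61 ± 0.08 (1.53-fold, adjusted p = 8e-06), HFD+CR minus HFD was -0.54 ± 0.08 (adjusted p = 0.000132) and HFD+CR minus LFD was 0.08 ± 0.08 (adjusted p = 0.651). All 26 alternatives kept both calls, with HFD minus LFD between 0.57 and 0.66. Gpr153, an orphan receptor of unknown ligand, had 8.09, 8.16, 8.15, 8.09 and 7.91 in HFD+CR mice, 8.35 to 8.54 (median 8.37) in HFD mice and 7.82 to 8.09 (median 8.04) in LFD mice. Its HFD values again lay above all others, with HFD minus LFD at 0.41 ± 0.06 (adjusted p = 2.9e-05), HFD+CR minus HFD at -0.32 ± 0.06 (adjusted p = 0.00113) and HFD+CR minus LFD at 0.10 ± 0.06 (adjusted p = 0.406).

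Gpr165, an orphan receptor on the X chromosome, ran the other way. HFD+CR mice had 6.90, 6.53, 7.06, 6.53 and 7.04, HFD mice had 6.26 to 6.39 (median 6.34) and LFD mice had 6.58 to 7.58 (median 6.97). The highest HFD mouse was below the lowest mouse of either other group. HFD minus LFD was -0.67 ± 0.13 (adjusted p = 0.000521), HFD+CR minus HFD was 0.48 ± 0.13 (adjusted p = 0.0158) and HFD+CR minus LFD was -0.19 ± 0.13 (adjusted p = 0.440). The HFD+CR minus HFD call was lost without HFD+CR mouse 3 (adjusted p = 0.0537) or mouse 5 (adjusted p = 0.0525). Its mean was below the median of every array, so the size is uncertain. Gpr75, proposed as a receptor for an arachidonic acid metabolite, had 7.31, 7.48, 7.32, 7.52 and 7.51 in HFD+CR mice, 7.10 to 7.33 (median 7.24) in HFD mice and 7.33 to 7.75 (median 7.44) in LFD mice. The HFD and LFD ranges met at 7.33. The difference of HFD minus LFD was -0.29 ± 0.07 (adjusted p = 0.00593), HFD+CR minus HFD was 0.20 ± 0.08 (adjusted p = 0.0729, and 0.0477 without LFD mouse 1) and HFD+CR minus LFD was -0.08 ± 0.08 (adjusted p = 0.589). Adipocyte markers also differed between the same groups. In HFD against LFD 6 of 8 fell (75.0%, background 11.3%) and 1 rose (12.5%, background 16.5%). In HFD+CR against HFD 5 of 8 rose (62.5%, background 7.69%) and none fell. The part of adipocyte markers in the values of Gpr165 and Gpr75 was not tested.

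Gpr161, a ciliary receptor that holds back Hedgehog signalling, had 7.36, 7.18, 7.06, 7.14 and 7.07 in HFD+CR mice, 7.10 to 7.29 (median 7.23) in HFD mice and 6.66 to 7.14 (median 7.04) in LFD mice, which overlapped. In limma, HFD minus LFD was 0.22 ± 0.07 (adjusted p = 0.0242), a call that ended without HFD mouse 6 (adjusted p = 0.0541) and with each array centred (adjusted p = 0.0609). The other differences were -0.05 for HFD+CR minus HFD and 0.17 for HFD+CR minus LFD. Gpr85, a dim brain receptor of the SREB family, had 5.97, 5.83, 5.80, 5.72 and 5.96 in HFD+CR mice, 5.90 to 6.14 (median 5.97) in HFD mice and 5.61 to 5.93 (median 5.79) in LFD mice. Its HFD minus LFD difference was 0.22 ± 0.06 (adjusted p = 0.00909), HFD+CR minus HFD was -0.14 (adjusted p = 0.125) and HFD+CR minus LFD was 0.08 (adjusted p = 0.534). The 21 genes of this list that passed in no comparison (Gpr6, Gpr12, Gpr19, Gpr20, Gpr22, Gpr26, Gpr27, Gpr45, Gpr52, Gpr61, Gpr62, Gpr63, Gpr101, Gpr135, Gpr139, Gpr142, Gpr149, Gpr151, Gpr152, Gpr162 and Gpr173) had differences of -0.13 to 0.11 for HFD minus LFD, -0.14 to 0.22 for HFD+CR minus HFD and -0.09 to 0.24 for HFD+CR minus LFD.

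**Figure D4:**
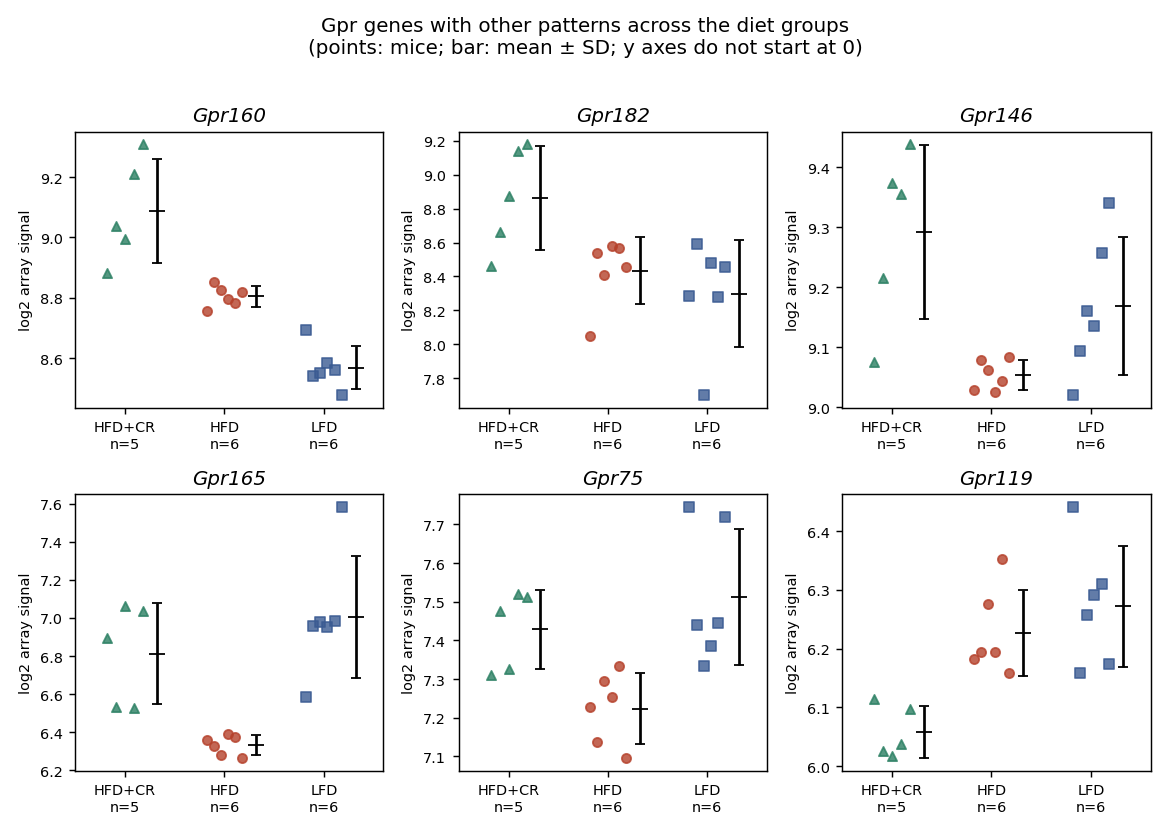
Log2 array signal of 6 Gpr genes whose diet pattern was not high in HFD alone, with 1 point per mouse, mean ± SD beside it and y axes that do not start at 0. Gpr160 is ordered HFD+CR, HFD and LFD with no overlap, Gpr182 is high in 4 HFD+CR mice, Gpr165 is low in all HFD mice and Gpr119 is low in all HFD+CR mice.

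Gpr160 passed in all 3 comparisons, the only one of the 59 genes to do so. It is an orphan receptor proposed, from work in rats, to bind the CART peptide. Its signal was 8.88, 9.04, 9.0, 9.21 and 9.31 in HFD+CR mice, 8.76 to 8.85 (median 8.81) in HFD mice and 8.48 to 8.69 (median 8.56) in LFD mice. No group overlapped another. HFD+CR minus LFD was 0.52 ± 0.06 (1.43-fold, adjusted p = 6.4e-05), HFD+CR minus HFD was 0.28 ± 0.06 (adjusted p = 0.00381) and HFD minus LFD was 0.24 ± 0.06 (adjusted p = 0.00605). HFD minus LFD was lost in 2 of 26 alternative analyses, at 0.17 (adjusted p = 0.0598) when arrays were quantile normalized again and 0.22 (adjusted p = 0.0511) when the 4 arrays named for Gpr183 were left out. Gpr146, which in mouse liver promotes lipoprotein secretion, had 9.08, 9.22, 9.37, 9.36 and 9.44 in HFD+CR mice, 9.03 to 9.08 (median 9.05) in HFD mice and 9.02 to 9.34 (median 9.15) in LFD mice. HFD+CR minus HFD was 0.24 ± 0.06 (adjusted p = 0.013), with ranges that met at 9.08, and HFD minus LFD was -0.11 ± 0.06 (adjusted p = 0.191). A second probe set that also matches D830046C22Rik gave 6.77 in HFD+CR, 6.96 in HFD and 6.77 in LFD, with HFD the highest group.

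Of the 6 Gpr-named membrane proteins outside the receptor classes, 1 passed: Gpr107, a Golgi and endosome protein needed for the transport of other proteins. That is 16.7% that rose in HFD against LFD (background 16.5%) and 16.7% that fell in HFD+CR against HFD (background 11.3%). For Gpr107, HFD+CR mice had 9.24, 9.12, 9.20, 9.09 and 9.10, HFD mice had 9.30 to 9.52 (median 9.36) and LFD mice had 8.94 to 9.20 (median 9.11). All HFD mice were above all others. The difference of HFD minus LFD was 0.29 ± 0.05 (adjusted p = 0.000333), HFD+CR minus HFD was -0.24 ± 0.05 (adjusted p = 0.00446) and HFD+CR minus LFD was 0.05 ± 0.05 (adjusted p = 0.646). Its Golgi relative Gpr108, the brightest of the 59 genes, averaged 10.32 ± 0.06 in HFD+CR, 10.34 ± 0.06 in HFD and 10.48 ± 0.12 in LFD, and HFD minus LFD was -0.14 ± 0.05 (adjusted p = 0.0595), HFD+CR minus HFD -0.02 (adjusted p = 0.874) and HFD+CR minus LFD -0.16 (adjusted p = 0.0881). Gpr108 passed for HFD minus LFD on leaving out LFD mouse 1 or 2, with adjusted p of 0.0471 and 0.0141, and with arrays centred (adjusted p = 0.033) or quantile normalized again (adjusted p = 0.00518). Without LFD mouse 2 it also passed for HFD+CR minus LFD (adjusted p = 0.023). Gpr143, Gpr157 and Gpr180 did not pass. The class C receptors Gpr158 and Gpr179 did not pass either.

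Gpr155, a lysosomal cholesterol sensor, had 3 probe sets that were all lower in HFD+CR than in HFD. Against LFD the brightest did not follow the other probe sets. The brightest gave 9.20 ± 0.08 in HFD+CR, 9.44 ± 0.11 in HFD and 9.42 ± 0.39 in LFD, with LFD mouse 3 at 10.19 and the other LFD mice at 9.11 to 9.38, and its differences did not pass (adjusted p = 0.948, 0.281 and 0.388 for HFD minus LFD, HFD+CR minus HFD and HFD+CR minus LFD). Without LFD mouse 3, HFD minus LFD was 0.17 (adjusted p = 0.0484) and HFD+CR minus HFD was -0.23 (adjusted p = 0.0112). The other probe sets averaged 7.12 and 6.97 in HFD+CR, 7.52 and 7.28 in HFD and 6.80 and 6.59 in LFD. The mean of all 3 probe sets gave HFD minus LFD of 0.47 ± 0.07 (adjusted p = 5.94e-05) and HFD+CR minus HFD of -0.31 ± 0.08 (adjusted p = 0.00597).

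Genes that act with these receptors were read from lists of their families, in which the median difference lay between -0.06 and 0.06 for HFD minus LFD, -0.04 and 0.05 for HFD+CR minus HFD, and -0.04 and 0.04 for HFD+CR minus LFD. Over all genes the medians were -0.00323, -0.00238 and -0.000449. The background shares were 16.5% that rose and 11.3% that fell in HFD against LFD. They were 7.69% and 11.3% in HFD+CR against HFD, and 5.8% and 3.28% in HFD+CR against LFD. The shares of the lists were not tested against other lists. Of 16 G protein alpha subunits, 7 rose (43.75%) and 2 fell (12.5%) in HFD against LFD. In HFD+CR against HFD 2 rose (12.5%) and 5 fell (31.25%), and in HFD+CR against LFD 4 rose (25.0%) and none fell. Gnal, the subunit that couples receptors to adenylyl cyclase in olfactory and striatal neurons, averaged 7.99 ± 0.51 in HFD+CR, 8.18 ± 0.09 in HFD and 6.90 ± 0.13 in LFD, with HFD minus LFD at 1.28 ± 0.15 (adjusted p = 3.74e-06) and HFD+CR minus LFD at 1.09 ± 0.16 (adjusted p = 0.000297). Gna15, a Gq-class subunit of blood cells, rose by 0.52 ± 0.06 in HFD against LFD and fell by 0.39 in HFD+CR against HFD. Of 13 adenylyl cyclases and phospholipases C beta, 3 rose (23.1%) and 5 fell (38.5%) in HFD against LFD. In HFD+CR against HFD 2 rose (15.4%) and 1 fell (7.69%), and in HFD+CR against LFD 1 rose (7.69%). Adcy7, the cyclase of immune cells, averaged 9.22 in HFD+CR, 10.05 in HFD and 9.07 in LFD, a rise of 0.99 ± 0.11 in HFD against LFD (adjusted p = 2.43e-06). Adcy5 averaged 10.53 ± 0.14 in HFD+CR, 10.44 ± 0.07 in HFD and 9.54 ± 0.50 in LFD. It rose by 0.91 ± 0.16 in HFD against LFD (adjusted p = 0.00035) and by 0.99 ± 0.17 in HFD+CR against LFD (adjusted p = 0.00122). Of 15 beta and gamma subunits 3 rose (20.0%) and 3 fell (20.0%) in HFD against LFD. In HFD+CR against HFD 1 rose (6.67%) and 2 fell (13.3%), and in HFD+CR against LFD 1 fell (6.67%).

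RGS proteins switch G proteins off by speeding the breakdown of GTP. Of 21, 5 rose (23.8%, background 16.5%) and 1 fell (4.76%, background 11.3%) in HFD against LFD. In HFD+CR against HFD 6 fell (28.6%, background 11.3%) and none rose (background 7.69%). In HFD+CR against LFD 3 rose (14.3%, background 5.8%) and none fell (background 3.28%). The same backgrounds apply to the lists that follow. Rgs1, a lymphocyte and macrophage RGS protein, averaged 7.66 ± 0.76 in HFD+CR, 9.42 ± 0.34 in HFD and 6.53 ± 0.33 in LFD, with HFD minus LFD at 2.89 ± 0.26 (adjusted p = 1.57e-07). Rgs18, known from platelets and myeloid cells, differed by 1.50 ± 0.16 for HFD minus LFD and -1.09 ± 0.16 for HFD+CR minus HFD. Arrestins and receptor kinases end receptor signalling: 3 of 9 (33.3%) rose in HFD against LFD (Arrb1 by 0.33, Arrb2 by 0.31 and Grk5 by 0.24). In HFD+CR against HFD 2 of 9 fell (22.2%), and in HFD+CR against LFD 1 rose and 1 fell (11.1% each). A list of 12 measured genes of ligand supply also holds enzymes that break ligands down, so its counts do not give the direction of ligand making. Of these 12, 3 rose (25.0%) and 4 fell (33.3%) in HFD against LFD. In HFD+CR against HFD 4 rose (33.3%) and 2 fell (16.7%), and 0 passed in HFD+CR against LFD. For the Gpr183 ligand pathway, Hsd3b7, which breaks its ligand down, had HFD minus LFD of -0.40 ± 0.04 (adjusted p = 2.29e-06), and Cyp27a1, a sterol hydroxylase, had HFD+CR minus HFD of 0.40 ± 0.06 (adjusted p = 0.000131). Of 27 receptors with other names that bind fatty acids, metabolites or lysophospholipids, 8 rose (29.6%) and 3 fell (11.1%) in HFD against LFD. In HFD+CR against HFD 5 rose (18.5%) and 6 fell (22.2%), and in HFD+CR against LFD 3 rose (11.1%) and 1 fell (3.70%). P2ry14, a receptor for UDP-sugars, rose by 1.24 ± 0.12 and Hcar1, the lactate receptor of adipocytes, fell by 0.70 ± 0.09 in HFD against LFD.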

How the data were processed

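RNA of periprostatic fat from 17 mice was measured, 1 array per mouse, with n = 5 HFD+CR, 6 HFD and 6 LFD. The deposited values are log2 signals per probe set. The tools listed, per the submitters' processing notes, are R 3.5.0, limma and RMA (background correction, normalization between arrays and probe summary), without saying what each did. RNA integrity numbers were above 7 per the labels' protocols, and no source here gives scan dates or batches. Arrays give no read depth, and the number of mice limits the precision. Of 33793 probe sets, 23521 have 1 gene symbol, 1814 several and 8458 none in the platform annotation. Each gene is read from its brightest probe set (highest mean of 17 arrays), giving 22180 genes. Of the 59 members, 20 overlap another protein-coding gene in RefSeq. Gpr3, Gpr21, Gpr39, Gpr89 and Gpr137 lie only on probe sets shared with other genes and were not used. Adhesion receptors once named Gpr carry other symbols.

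Group means were estimated for all genes and 17 arrays by lmFit and eBayes of limma 3.58.1 (R 4.3.3; 14 residual degrees of freedom), with dim genes kept. The p was adjusted by Benjamini-Hochberg within each comparison, with a threshold of 0.05. Errors are SE for differences and SD for means. The fit was tested on simulated data. Figures were drawn with matplotlib 3.10.9. The members, gene lists, markers and tests were chosen with earlier results of these data known. Values are given for the 16 passing members with the largest differences, for the other passing members with a difference of at least 0.3, for Gpr1, Gpr35, Gpr55, Gpr65, Gpr84, Gpr119, Gpr132 and Gpr183 whatever their values, and for up to 3 members of each pathway list per comparison. Gpr4, Gpr17, Gpr33, Gpr82, Gpr83, Gpr108, Gpr155, Gpr171 and Gpr174 were named after their values were seen. Alternatives were leaving out each mouse, a block for mouse number, a filter that keeps genes above the median level, averaging probe sets, quantile normalization again, centring on array medians, a fit of 2 groups only, robust eBayes with a trend, and leaving out 4 arrays that an earlier look had listed for other tissue (HFD+CR mouse 2, HFD mouse 3, LFD mice 2 and 3) or 2 with bright thermogenic genes (LFD mice 3 and 6).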

Additional observations from a re-analysis of the deposited data

Results flagged for a closer look

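In 81 groups of mice for the Gpr genes named, 9 single values stood apart from the rest of their group by Dixon's critical value, which chance passes in about 1 of 20 groups. Of the 27 genes, 7 (Gpr83 and Gpr155 among them) were named after their values were seen, so that rate does not apply to their groups. In LFD mouse 6, Gpr18 was 7.21, against 8.08 to 8.56 in the other LFD mice, and Gpr183 was 7.32, against 7.95 to 8.25. In LFD mouse 3, Gpr83 was 9.50, against 5.94 to 6.63 in the others, Gpr155 was 10.19, against 9.11 to 9.38, and Gpr182 was 7.70, against 8.28 to 8.59. Gpr161 was 6.66 in LFD mouse 2, against 7.00 to 7.14 in the others. Gpr153 was 7.91 in HFD+CR mouse 5, against 8.09 to 8.16 in the other HFD+CR mice, and 8.54 in HFD mouse 6, against 8.35 to 8.40 in the other HFD mice. Gpr182 was 8.05 in HFD mouse 1, against 8.41 to 8.58 in the others. LFD mouse 3 had raised muscle, gland epithelium, urothelium and thermogenic markers, and LFD mouse 6 raised thermogenic and low B cell markers.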

How the results depend on the processing

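No alternative turned the direction of a called Gpr gene. Of the 28 called differences of the named genes (described above with the mice that decide them), 20 kept their call in all alternatives tried and 8 lost it in at least 1. Of 53 that were not called, 12 were called in at least 1. Genes higher in HFD than in LFD numbered 11, with 6 when only genes above the median level were tested (fewer genes tested), 7 without the 4 arrays listed earlier for other tissue (which loses Gpr33, Gpr160, Gpr161 and Gpr183) and 10 to 13 with a mouse left out. Genes lower in HFD numbered 2, with 1 among genes above the median level, 4 with quantile normalization again and 2 to 3 with a mouse left out. The all-gene counts were 2502 of 22180, 2079 of 11090 above the median level and 3300 of 22180 with quantile normalization again. Genes higher in HFD+CR than in HFD numbered 3, with 6 when only these groups were fitted, 6 without LFD mice 3 and 6, and 2 to 5 with a mouse left out. The all-gene counts were 1705 of 22180, 1947 with only these groups and 1956 without LFD mice 3 and 6. Genes lower in HFD+CR than in HFD numbered 8, with 7 to 10 with a mouse left out. The all-gene count was 2508 of 22180, with 2000 to 2836 with a mouse left out. Genes higher in HFD+CR than in LFD numbered 2, with 1 when only these groups were fitted, 1 without LFD mice 3 and 6, and 1 to 3 with a mouse left out. The all-gene counts were 1287 of 22180, 1000 with only these groups and 958 without LFD mice 3 and 6. Genes lower in HFD+CR than in LFD numbered 2, with 1 in each of the fits of these groups alone, with trend and robust eBayes, and without the 4 arrays. They numbered 1 to 2 with a mouse left out. The all-gene counts were 728 of 22180, then 555, 763 and 655 in those fits. The causes of these shifts were not tested except where stated.

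With the mouse number as a block, HFD+CR had 6 higher genes than HFD and 9 lower ones, and HFD had 11 higher and 3 lower than LFD. Of all 22180 genes, 1616 were then higher and 2394 lower in HFD+CR than in HFD. In HFD against LFD 3620 were higher and 2436 lower. With this block Gpr4 passed for HFD+CR minus HFD at 0.42 (adjusted p = 0.0172) and for HFD minus LFD at -0.30 (adjusted p = 0.0445). Gpr182 passed with it for HFD+CR minus HFD at 0.45 (adjusted p = 0.0317). The samples share only a number: correlations of same-numbered mice ran from -0.11 to 0.41, and in 4 of 16 such pairs the mouse correlated best with its own number. Over all genes, higher calls in HFD were 59.4% of calls against LFD, 47.9% with arrays centred on their medians and 47.9% with quantile normalization again; in HFD+CR against HFD they were 40.5%, 46.4% and 51.4%. Signals below the array medians, as for 29 of the 59 genes, limit the sizes that can be read.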
